A study of Mus musculus with 4 samples.

Results

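H3K27ac was compared between Zscan4+ and Zscan4- mouse embryonic stem (ES) cells at 12 of the 23946 acetylated regions that the authors listed. H3K27ac is the acetylation of lysine 27 on histone H3, a mark of active promoters and enhancers. The 12 regions were those overlapping genome windows around Stat3, Socs3, Id1 and Id3, which are response genes of leukemia inhibitory factor (LIF) and bone morphogenetic protein (BMP) signalling. On the mouse build mm9 the windows were chr11:100725000-100825000 for Stat3, chr11:117805000-117850000 for Socs3, chr2:152540000-152590000 for Id1 and chr4:135675000-135725000 for Id3. They held 1, 5, 2 and 4 regions in that order. All cells were MC1-ZE7 ES cells of strain 129S6/SvEvTac, grown without feeder cells in medium with 15% serum and 1000 U/ml LIF, and sorted on the fluorescence of the Emerald reporter. The Zscan4- group was the Emerald-negative cells and the Zscan4+ group the bright Emerald-positive fraction, with 2 libraries each. No label ties the replicates to separate cultures, and p-values therefore reflect only the spread between these libraries, which may be technical. Emerald marks cells through a reporter in a single line, and the sorted states were not checked here against marker genes, because the regions carry no gene names and no mm9 annotation was used. For the same reason each region is named by its window, its identifier and its position, and it is not known here whether a region is the promoter, an enhancer or part of a neighbouring gene. In RefSeq's gene order on GRCm38.p6, the nearest protein-coding neighbours are Stat5a and Cavin1 for Stat3, Tha1 and Pgs1 for Socs3, Mcts2 and Cox4i2 for Id1, and Rpl11 and E2f2 for Id3.

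LIF binds a receptor made of Lifr and gp130, which activates JAK kinases and through them the transcription factor Stat3. Stat3 enters the nucleus and switches on its targets, among them Socs3, whose protein binds the receptor and JAK and dampens the signal. BMP receptors phosphorylate Smad1 and Smad5, which with Smad4 induce the Id genes. Id1 and Id3 proteins have a helix-loop-helix domain without the basic part that contacts DNA, so they pair with other helix-loop-helix factors and keep them from binding. In ES cells LIF with BMP, or with serum, sustains self-renewal.

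The RefSeq table held a promoter for Stat3, Socs3 and Id3, and none for Id1. They are shown because a Stat3 site before Socs3 is part of the feedback described above. The 250 bases before each gene's start are given 5′ to 3′ on the gene's strand, with motif matches in capitals. The coordinates are of GRCm38.p6, so their place relative to the mm9 regions was not determined.
Stat3, chr11:100939541-100939790, minus strand: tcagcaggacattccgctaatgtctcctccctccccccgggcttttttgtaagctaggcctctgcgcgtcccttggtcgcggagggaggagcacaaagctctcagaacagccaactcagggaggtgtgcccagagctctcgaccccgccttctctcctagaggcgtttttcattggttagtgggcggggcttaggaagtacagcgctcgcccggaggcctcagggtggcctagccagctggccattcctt
Socs3, chr11:117969367-117969616, minus strand: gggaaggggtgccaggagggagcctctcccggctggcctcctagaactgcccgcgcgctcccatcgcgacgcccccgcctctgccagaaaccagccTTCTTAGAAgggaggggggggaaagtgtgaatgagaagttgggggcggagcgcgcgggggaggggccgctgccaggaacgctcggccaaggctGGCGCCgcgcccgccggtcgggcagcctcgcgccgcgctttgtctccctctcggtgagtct
Id3, chr4:136143572-136143821, plus strand: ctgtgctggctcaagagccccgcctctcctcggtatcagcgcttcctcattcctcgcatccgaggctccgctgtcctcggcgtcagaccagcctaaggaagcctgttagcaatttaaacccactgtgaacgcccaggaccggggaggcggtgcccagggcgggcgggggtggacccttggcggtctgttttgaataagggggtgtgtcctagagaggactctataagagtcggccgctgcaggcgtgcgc
The motifs searched on both strands were TTCNNNGAA, bound by Stat factors, and GGCGCC and GCCGNCGC, bound by Smads of the BMP branch. The Socs3 promoter held TTCTTAGAA, beginning 154 bases before the start, and GGCGCC, beginning 61 bases before it. The searched letters were not in the 250 bases shown for Stat3 and Id3. Of all 32851 promoter windows of this length, 7.02% held TTCNNNGAA, 9.59% held GGCGCC and 6.89% held GCCGNCGC, so each match is a description of the sequence only.

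Levels are in RPKM, read counts scaled to region length and to the size of the library. The libraries held 9939201 to 18282314 reads, worked out from the steps of the RPKM values, and the median listed region had 56 to 107 reads. Between 12.97% and 19.14% of a library's reads fell in listed regions, and both of these values were from Zscan4+ libraries. Replicate 2 of both groups was size-selected at 200 to 500 bp and replicate 1 at 200 to 300 bp. Intervals on reads given below are exact 95% intervals and cover counting error only, since PCR copies are not independent molecules.

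H3K27ac changed in both directions within these windows. By limma on log2(RPKM + 0.5), fitted over all regions and called at a Benjamini-Hochberg adjusted p of at most 0.05, 1 of the 12 regions was higher in Zscan4+ cells and 3 were lower. Over all 23946 regions 8.01% were called higher and 6.82% lower, and 9.35% and 10.9% with the replicate number as a block, which called the same numbers of the 12. With each library centred on its median, 2 of the 12 were higher and 4 lower, against 14.1% and 15.1% of all regions. Without Zscan4+ replicate 2, 1 was higher and 8 were lower, against 7.73% and 31.5% of all regions. The 6 regions of the Stat3 and Socs3 windows held 0 higher and 1 lower call, and the 6 regions of the Id1 and Id3 windows held 1 higher and 2 lower calls. With so few regions these counts are described and not compared. The median log2 difference, Zscan4+ minus Zscan4-, was -0.51 over the 12 regions and -0.17 over all regions. Centring each library on its median moved these to -0.41 and -0.07. Both Zscan4+ libraries were below both Zscan4- libraries in 7 of the 12 regions, against 35.1% of all regions, and above them in 2, against 18.6%.

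**Figure D1:**
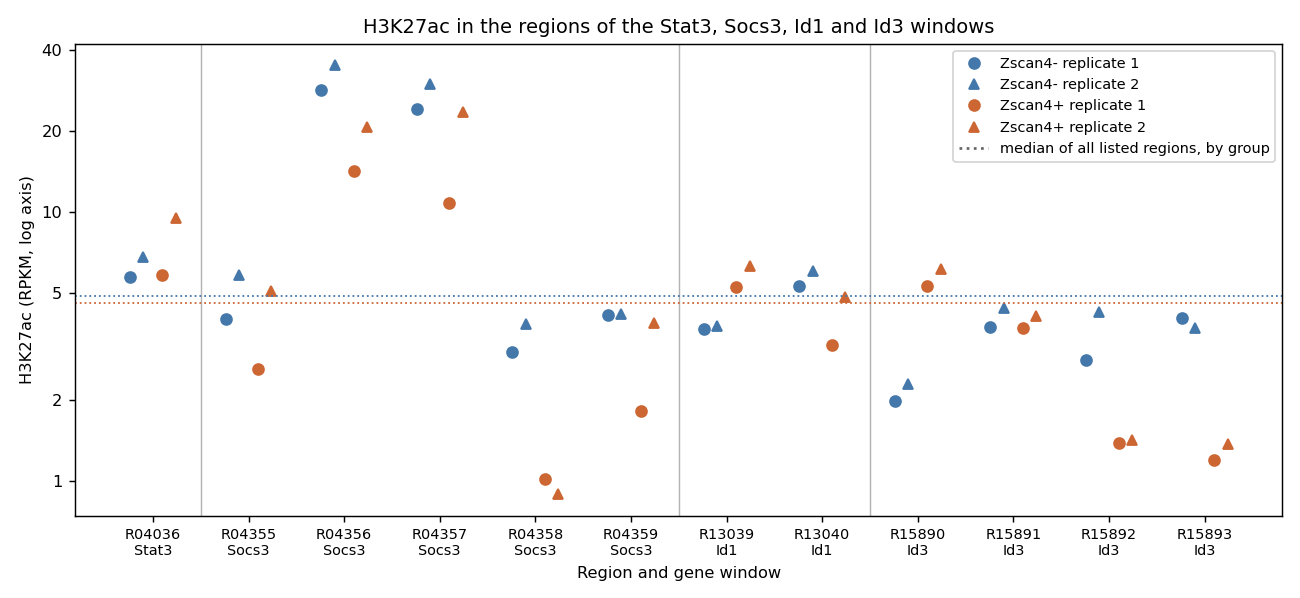
H3K27ac in RPKM (log axis) in each library for the 12 regions, ordered by gene window. Circles are replicate 1 and triangles replicate 2, Zscan4- in blue and Zscan4+ in orange, and dotted lines are the medians of all listed regions in each group. Of the regions called by limma, R15890 is higher and R04358, R15892 and R15893 are lower in both Zscan4+ libraries. With uncalled regions included, 2 are higher and 7 lower in both.

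The Stat3 window held a single region, which did not pass the test. Stat3 is the factor that LIF activates, and also a target of its own signal. Region R04036, chr11:100800002-100801963, is 1961 bp wide, wider than 92.1% of listed regions. It had 5.75 and 6.78 RPKM in Zscan4- replicates 1 and 2, and 5.83 and 9.51 RPKM in Zscan4+ replicates 1 and 2. The groups overlapped, with Zscan4+ replicate 1 close to Zscan4- replicate 1 and Zscan4+ replicate 2 above the other libraries. The log2 difference was 0.24 ± 0.37 (standard error, limma adjusted p = 0.75). It was 0.02 in the replicate 1 pair and 0.46 in the replicate 2 pair, and -0.09 without Zscan4+ replicate 2, so its sign rests on that library. With the replicate block it was not called (limma adjusted p = 0.68), but with the block and median centring together it was called higher, at 0.34 ± 0.12 (limma adjusted p = 0.048), over a range of 0.048 to 1.0 in the 16 alternatives. The block with median centring called 20.7% of all regions higher and 24.5% lower. Pooled within groups, 348 Zscan4- reads stood against 506 Zscan4+ reads, a depth-adjusted ratio of 1.18 (95% interval 1.03 to 1.35). The next listed regions lay 56.7 kb before and 44.8 kb after the window.

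The Socs3 window held the 2 most strongly acetylated of the 12 regions, and each of its 5 regions had a lower mean in Zscan4+ than in Zscan4- cells. Over all regions the median log2 difference was -0.17, and 44.9% of regions had a negative difference in both replicate pairs. The 5 regions lie within 20.3 kb in the same libraries, so their shared sign is not 5 independent results. Socs3 is the feedback inhibitor of LIF signalling. Only R04358, chr11:117844842-117845545, passed the test. It had 3.01 and 3.84 RPKM in Zscan4- replicates 1 and 2, and 1.01 and 0.89 RPKM in Zscan4+ replicates 1 and 2. Both Zscan4+ libraries lay below both Zscan4- libraries, and its Zscan4+ mean was higher than 0.2% of listed regions, against 18.8% for its Zscan4- mean. No listed region had a mean below 1.95 RPKM in its higher group. A listed region under that value in Zscan4+ cells, as R04358 was, therefore has a higher Zscan4- mean by construction. Neither its direction nor its low Zscan4+ rank is thus separate support for the call. The test and the interval on reads were not corrected for this. The log2 difference was -1.43 ± 0.37 (limma adjusted p = 0.0015), with -1.22 in the replicate 1 pair and -1.64 in the replicate 2 pair. Pooled within groups, 69 Zscan4- reads stood against 23 Zscan4+ reads, a depth-adjusted excess of 3.7 times in Zscan4- cells (95% interval 2.28 to 6.22). Without Zscan4- replicate 2 the difference was -1.28 ± 0.55 and was not called (limma adjusted p = 0.29). Over the 16 alternatives its limma adjusted p ran from 0.00031 to 0.29, and it was called in 15.

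A pair of narrow regions in the same window, 579 bp apart, carried the highest levels of the 12. R04356, chr11:117836462-117836720, had 28.47 and 35.13 RPKM in Zscan4- replicates 1 and 2, and 14.2 and 20.69 RPKM in Zscan4+ replicates 1 and 2. R04357, chr11:117837299-117837582, had 24.18 and 29.84 RPKM in Zscan4- and 10.82 and 23.53 RPKM in Zscan4+ replicates 1 and 2. In both regions the Zscan4+ libraries lay below the Zscan4- libraries, by a narrow margin in R04357, where Zscan4+ replicate 2 came close to Zscan4- replicate 1. Their Zscan4- means exceeded 96.4% and 94.6% of listed regions, and their Zscan4+ means 90.0% and 89.8%. The log2 difference was -0.86 ± 0.41 for R04356 (limma adjusted p = 0.15) and -0.73 ± 0.4 for R04357 (limma adjusted p = 0.24), neither of which passed. R04356 was called in 5 of 16 alternatives, among them median centring (-0.77 ± 0.18, limma adjusted p = 0.011) and the fit without Zscan4+ replicate 2 (-1.13, limma adjusted p = 0.0034), with adjusted p of 0.0015 to 1.0 over the 16. R04357 was called in 2 of them: the block with median centring (-0.63 ± 0.14, limma adjusted p = 0.0054) and the fit without Zscan4+ replicate 2 (-1.27). Median centring alone did not call it (limma adjusted p = 0.054). The call at R04356 therefore depends on how the libraries are scaled and on Zscan4+ replicate 2. That at R04357 depends on scaling together with the block, or on Zscan4+ replicate 2.

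The 2 remaining regions of the Socs3 window were wide and of ordinary level. R04355, chr11:117829932-117831565, had 4.0 and 5.83 RPKM in Zscan4- and 2.61 and 5.08 RPKM in Zscan4+ replicates 1 and 2, with overlapping groups and a log2 difference of -0.36 ± 0.35 (limma adjusted p = 0.58). R04359, chr11:117848419-117850221, had 4.13 and 4.16 RPKM in Zscan4- and 1.82 and 3.87 RPKM in Zscan4+ replicates 1 and 2, and a log2 difference of -0.54 ± 0.35 (limma adjusted p = 0.33). In both, the replicate 1 pair differed more than the replicate 2 pair, at -0.53 against -0.18 in R04355 and -1.0 against -0.09 in R04359. Without Zscan4+ replicate 2 both were called, at -0.78 (limma adjusted p = 0.049) and -1.0 (limma adjusted p = 0.016). Without Zscan4+ replicate 1 neither was, at 0.06 (limma adjusted p = 0.89) and -0.09 (limma adjusted p = 0.84), so the sign of R04355 also changed. Their limma adjusted p ran from 0.049 to 1.0 and from 0.016 to 1.0 over the alternatives. Over all regions the median log2 difference was likewise lower in the replicate 1 pair, at -0.37, than in the replicate 2 pair, at 0.05. Weighted by width, the 5 regions had 6.47 and 7.96 RPKM in Zscan4- and 3.2 and 5.96 RPKM in Zscan4+ replicates 1 and 2, a log2 ratio of -0.72. Leaving out Zscan4+ replicate 1 gave -0.27, and leaving out Zscan4+ replicate 2 gave -1.16. The exact two-sided permutation p was 0.333, the smallest that 2 libraries against 2 can give. R04359 reaches past the end of the window. The regions just outside the window also had negative log2 differences that did not pass: R04354, 9.0 kb before it, had -0.96 ± 0.38 (limma adjusted p = 0.066), and R04360, 6.7 kb after it, had -0.65 ± 0.35 (limma adjusted p = 0.22).

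In the Id1 window the 2 regions differed in opposite directions, and neither passed the test. Id1 is an early BMP target. R13039, chr2:152559947-152561734, had 3.66 and 3.75 RPKM in Zscan4- and 5.26 and 6.29 RPKM in Zscan4+ replicates 1 and 2. R13040, chr2:152566816-152568315, had 5.3 and 6.01 RPKM in Zscan4- and 3.21 and 4.82 RPKM in Zscan4+ replicates 1 and 2. The groups did not overlap in either region: Zscan4+ libraries were the higher in R13039 and the lower in R13040, which starts 5.1 kb further on. The log2 difference of R13039 was 0.57 ± 0.35 (limma adjusted p = 0.31) and that of R13040 was -0.47 ± 0.36 (limma adjusted p = 0.43). Scaling bears on the first: R13039 was called higher with median centring (0.67 ± 0.19, limma adjusted p = 0.023), with quantile normalization (0.7, limma adjusted p = 0.025) and with voom, a weighted fit of the recovered reads, scaled by reads inside listed regions (0.76, limma adjusted p = 0.0073). These settings called 14.1%, 13.8% and 15.8% of all regions higher. Its limma adjusted p ran from 0.0062 to 1.0 over the 16 alternatives, 4 of which called it. R13040 was called in 1, without Zscan4+ replicate 2, at -0.73 (limma adjusted p = 0.037, range 0.037 to 1.0). R13039 had 184 pooled Zscan4- reads against 351 Zscan4+ reads, a depth-adjusted ratio of 1.54 (95% interval 1.29 to 1.86). Weighted by width the Id1 window as a whole had 4.41 and 4.78 RPKM in Zscan4- and 4.32 and 5.62 RPKM in Zscan4+ replicates 1 and 2, a log2 ratio of 0.1 with an exact two-sided permutation p of 1.0, and of -0.09 without Zscan4+ replicate 2. The value of the window thus combined 2 differences of opposite sign, neither of which passed the test. Outside it, R13038, 6.0 kb before, had a log2 difference of -0.04 ± 0.39 and R13041, 27.6 kb after, had -0.19 ± 0.36, with limma adjusted p of 0.97 and 0.8.

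The Id3 window held 1 region called higher, the single such call among the 12 in the fit of the deposited values, and 2 called lower. Id3 encodes the second of these helix-loop-helix inhibitors. R15890, chr4:135696509-135697321, had 1.98 and 2.29 RPKM in Zscan4- and 5.32 and 6.11 RPKM in Zscan4+ replicates 1 and 2. Both Zscan4+ libraries lay well above both Zscan4- libraries, and the replicates of each group were close. Its mean exceeded 8.0% of listed regions in Zscan4- and 64.1% in Zscan4+ cells. No listed region had a mean below 1.95 RPKM in its higher group. A listed region under that value in Zscan4- cells thus has a higher Zscan4+ mean by construction. R15890, at 2.13 RPKM in Zscan4- cells, lay only slightly above it. How many such weak regions were listed through Zscan4+ was not counted, so its low Zscan4- rank is no separate support for the call. The log2 difference was 1.24 ± 0.35 (limma adjusted p = 0.0053), at 1.23 in the replicate 1 pair and 1.24 in the replicate 2 pair. Pooled within groups, 49 Zscan4- reads stood against 158 Zscan4+ reads, a depth-adjusted excess of 2.61 times in Zscan4+ cells (95% interval 1.88 to 3.68). It was not called without Zscan4- replicate 1 (1.15 ± 0.64, limma adjusted p = 0.56) or without Zscan4- replicate 2 (1.32 ± 0.63, limma adjusted p = 0.4). The other 14 alternatives called it, and its adjusted p ran from 0.00044 to 0.56 over the 16.

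Further along the Id3 window, 17.3 kb after the next region, a pair of narrow regions 549 bp apart fell in Zscan4+ cells. R15892, chr4:135720993-135721350, had 2.82 and 4.26 RPKM in Zscan4- and 1.38 and 1.41 RPKM in Zscan4+ replicates 1 and 2, a log2 difference of -1.07 ± 0.36 (limma adjusted p = 0.025). R15893, chr4:135721899-135722174, had 4.02 and 3.69 RPKM in Zscan4- and 1.19 and 1.37 RPKM in Zscan4+ replicates 1 and 2, a log2 difference of -1.29 ± 0.36 (limma adjusted p = 0.0042). In each the groups were apart, and the Zscan4+ means exceeded 1.1% and 0.8% of listed regions. Both regions reached 1.95 RPKM, the lowest higher-group mean on the list, only in Zscan4- cells. With Zscan4+ means under that value, they could be listed only with a higher Zscan4- mean. The tests and the intervals on reads were not corrected for this. Neither the direction nor the low Zscan4+ ranks are thus separate support for the calls. The reads behind them were few: R15892 had 37 pooled Zscan4- reads against 17 Zscan4+ reads, a depth-adjusted excess of 2.69 times in Zscan4- cells (95% interval 1.48 to 5.09), and R15893 had 29 against 12, an excess of 2.98 times (1.48 to 6.42). R15892 was not called without Zscan4- replicate 1 (limma adjusted p = 0.14), without Zscan4- replicate 2 (0.83), or with voom on the recovered reads scaled to library totals (0.069), and its adjusted p ran from 0.0083 to 0.83 over the 16 alternatives. R15893 was not called without Zscan4- replicate 1 (0.18) or replicate 2 (0.24), over a range of 0.00087 to 0.24. The 2 regions are close neighbours in the same libraries and are not independent evidence of each other.

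Between R15890 and this pair lay R15891, chr4:135702900-135703684, in which no difference was detected. It had 3.72 and 4.38 RPKM in Zscan4- and 3.7 and 4.09 RPKM in Zscan4+ replicates 1 and 2, with overlapping groups. The log2 difference was -0.05 ± 0.35 (limma adjusted p = 0.96), and the ratio of pooled reads, 0.94, had a 95% interval of 0.7 to 1.26. The sign of this difference was positive in 6 of the 16 alternatives, median centring among them. Weighted by width, the Id3 window had 2.98 and 3.51 RPKM in Zscan4- and 3.61 and 4.06 RPKM in Zscan4+ replicates 1 and 2, a log2 ratio of 0.24 (exact two-sided permutation p = 0.333). The regions just outside the window had differences near 0: R15889, 65.4 kb before it, had a log2 difference of 0.0 ± 0.37 and R15894, 10.4 kb after it, had -0.02 ± 0.37, with limma adjusted p of 1.0 and 0.98.

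**Figure D2:**
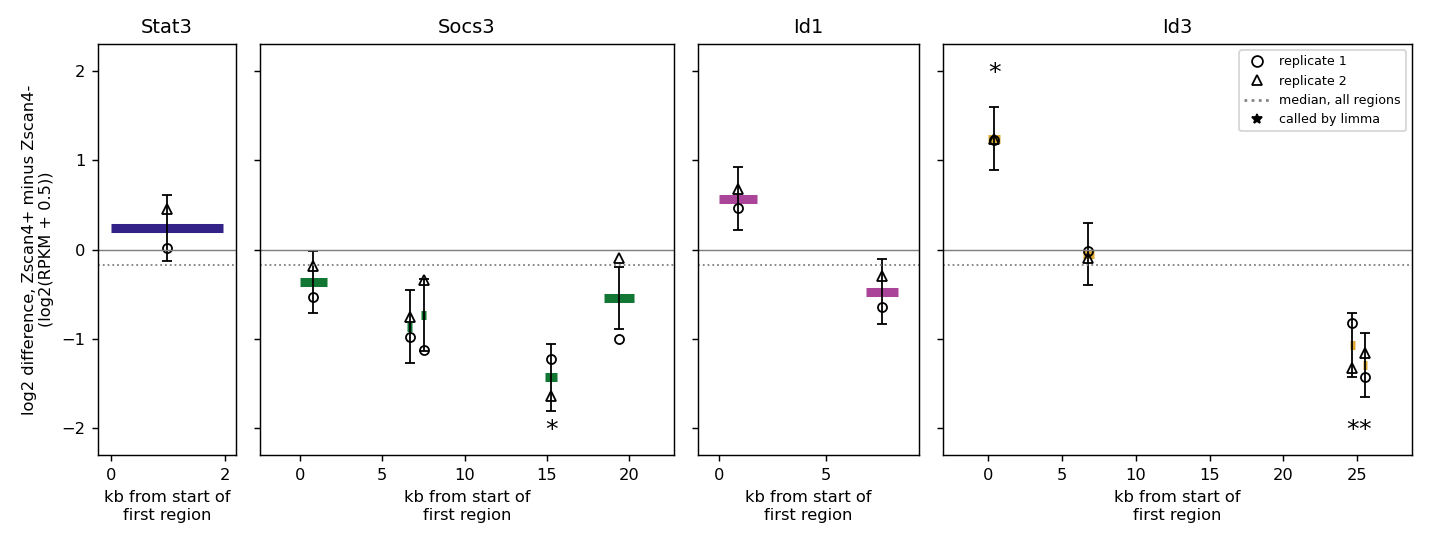
Log2 difference in H3K27ac, Zscan4+ minus Zscan4- on the log2(RPKM + 0.5) scale, along each window in kb from the start of its first region. Coloured bars span each region to scale, error bars are limma standard errors, open circles and triangles are the pairs of replicates 1 and 2, stars mark the 4 called regions, and the dotted line is the median of all regions, -0.17. In the Id3 window the difference goes from 1.24 at the first region to -1.29 at the last, while in the Socs3 window all 5 lie below 0.

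Ratios between regions of the same window do not depend on the scaling of the library, and were computed for all 17 pairs of regions that share a window, a comparison chosen after the values had been seen. In 12 of the 17 pairs (70.6%) the 2 Zscan4+ ratios did not overlap the 2 Zscan4- ratios. The same held for 61.0% of all 18924 pairs of listed regions with centres at most 25.1 kb apart and reads in every library, and pairs share regions, so the count is no trait of these windows and only the values are described. In the Id3 window the ratio of R15890 to R15893 was 0.49 and 0.62 in Zscan4- and 4.47 and 4.46 in Zscan4+ replicates 1 and 2. The ratio of R15890 to R15891, the neighbour whose level did not detectably differ, was 0.53 and 0.52 in Zscan4- and 1.44 and 1.49 in Zscan4+ replicates 1 and 2. R15893 had only 6 reads in each Zscan4+ library, so the closeness of 4.47 and 4.46 does not show precision. By RPKM the stronger region of each of these pairs was thus a different one in the 2 groups of libraries. The same held in the Id1 window, where the ratio of R13039 to R13040 was 0.69 and 0.62 in Zscan4- and 1.64 and 1.3 in Zscan4+ replicates 1 and 2. In the Socs3 window the ratio of the 2 strong neighbours R04356 and R04357 was 1.18 and 1.18 in Zscan4- and 1.31 and 0.88 in Zscan4+ replicates 1 and 2, with overlapping groups. R04358 was lower relative to R04355 in both Zscan4+ libraries, with R04355 to R04358 ratios of 1.33 and 1.52 in Zscan4- and 2.58 and 5.71 in Zscan4+ replicates 1 and 2. R04358 had only 13 and 10 reads in Zscan4+ replicates 1 and 2. Each of the 12 pairs had an exact two-sided permutation p of 0.333, the smallest that this design allows, and 0.472 after Benjamini-Hochberg adjustment over the 17, so none can pass.

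**Figure D3:**
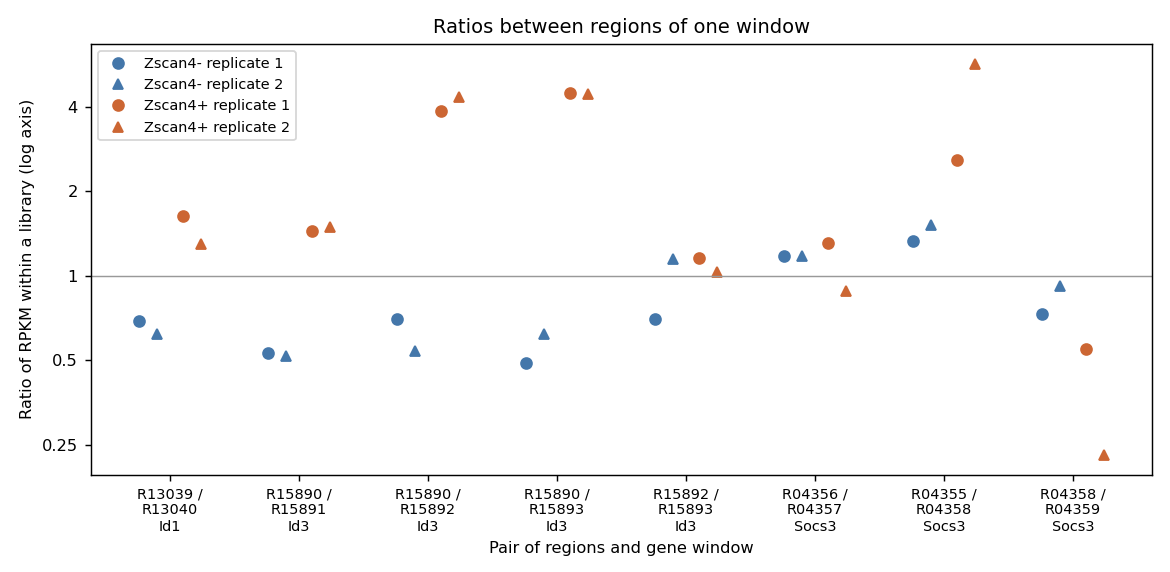
Ratio of RPKM between 2 regions of a window within each library (log axis), for 8 of the 17 pairs, with Zscan4- in blue, Zscan4+ in orange, circles for replicate 1 and triangles for replicate 2. The R15890 to R15893 ratio is 0.49 and 0.62 in Zscan4- and 4.47 and 4.46 in Zscan4+ libraries, while the R04356 to R04357 ratio overlaps between the groups. R15893 had 6 reads in each Zscan4+ library.

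Among themselves the 12 regions ranged widely in strength and size. In Zscan4- cells the order of mean levels began with R04356 at 31.8 ± 4.71 RPKM and R04357 at 27.01 ± 4.0 RPKM (SD, n = 2), whose libraries overlapped, followed after a wide gap by R04036 at 6.26 ± 0.73 and R13040 at 5.65 ± 0.5, whose libraries also overlapped. R15890 was lowest, at 2.13 ± 0.22. In Zscan4+ cells the same pair led, at 17.44 ± 4.59 and 17.18 ± 8.99 RPKM, followed by R04036 at 7.67 ± 2.6, and R13039 and R15890 came next at 5.78 ± 0.73 and 5.72 ± 0.56, which did not differ beyond their spread. R04358 was lowest there, at 0.95 ± 0.08. Their widths ran from 258 to 1961 bp with a median of 798 bp, against 1111 bp over all regions. Within 25 kb of its centre the median member had 5 listed regions, itself included, against 2 for all regions. This median rests on the Socs3 and Id3 windows, whose regions count one another. Each Id1 region had 2, and the single Stat3 region had no other. In the group where it was higher, every listed region had a mean of at least 1.95 RPKM and each of the 12 at least 3.42 RPKM, and how the authors called the list is not stated here.

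**Figure D4:**
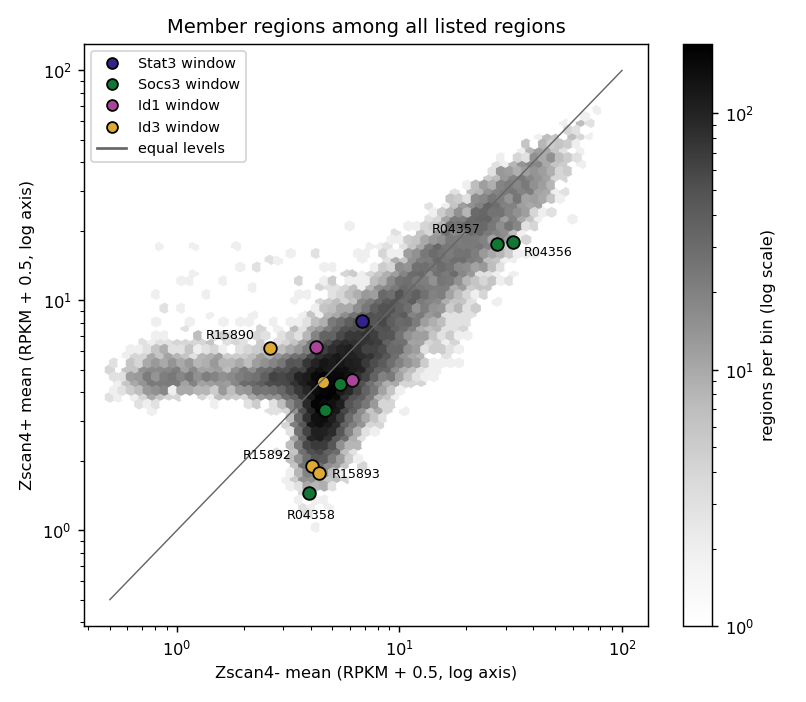
Mean H3K27ac in Zscan4- (x axis) and Zscan4+ cells (y axis), as RPKM + 0.5 on log axes, with all 23946 listed regions in grey bins and the 12 members as coloured points. R15890 lies above the line of equal levels, R04358, R15892 and R15893 lie below it at low levels, and R04356 and R04357 lie below it among the strongly acetylated regions.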

How the data were processed

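H3K27ac chromatin immunoprecipitation sequencing was measured in 2 Zscan4- and 2 Zscan4+ libraries. The authors deposited RPKM with 2 decimals over 23946 shared regions; the unit is per the file headers. Bowtie, HOMER and mm9 are named in the submitters' processing notes; their versions, like the region calling, were not given in the sources used here. No input library was used here. Coordinates are printed as deposited. Members overlapped a window by any amount. Members, gene lists and tests were chosen with earlier results of these data known. Every member was reported; pathway genes outside the windows and cell markers were not analysed here for want of an mm9 annotation.

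Groups were compared with limma 3.58.1 (R 4.3.3) with trended variance on log2(RPKM + 0.5), two-sided and adjusted over all regions. A minimum mean of 0.5 RPKM was set, which all passed. This scale understates changes of low regions. The fit was also run on simulated reads. Apart from depth, these held no library-wide or replicate differences, so that run cannot show how such differences affect the calls here. Whole reads were recovered from the steps of RPKM times width: 97.13% to 99.97% of values under 50 reads lay within 0.1 of a whole number. Replicate numbers were taken to pair the libraries, since the labels give replicate 2 its own size selection in both groups. Replicate differences correlated at 0.35 between groups across regions. The main fit had no replicate block. Ratios and permutation tests used Python 3.11.15 with scipy 1.17.1. Alternatives were the replicate block, other pseudocounts, minimums, scalings, variance and threshold, voom on recovered reads, and leaving out each library.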

Additional observations from a re-analysis of the deposited data

How the results depend on the processing

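Of 192 values of the 12 regions under 16 alternatives, 161 kept their direction and their side of the threshold, 8 lost a call, 15 gained one and 8 changed sign. The replicate block changed no call among the 12. Sign changes were in regions that were not called: R04036 (-0.09 to 0.57 with a library left out), R04355 (-0.78 to 0.06) and R15891 (-0.15 to 0.06), the last also at 0.05 with median centring, with or without the block, 0.06 with quantile normalization and 0.04 with voom by reads inside listed regions. Higher calls among the 12 numbered 2 with median centring, quantile normalization and voom by reads inside listed regions, 3 with the block and median centring, and 0 to 1 when a library was left out. Lower calls came to 5 with the block and median centring, and 0 to 8 when a library was left out. Over all regions, higher calls (1917) numbered 3375 with median centring, 3307 with quantile normalization, 4949 with the block and median centring, 3785 with voom by reads inside listed regions, and 1101 to 3119 when a library was left out. The 1632 lower calls became 2603 under the replicate block, 3622 with median centring, 3278 with quantile normalization, 5864 with the block and median centring, 2502 at a threshold of 0.1, 3791 with voom by reads inside listed regions, and 59 to 7547 when a library was left out. The block with median centring thus called 20.7% of all regions higher and 24.5% lower. Leaving out a Zscan4- library assumes that the remaining Zscan4- library varies like the Zscan4+ pair, and standard errors rose, for example to 0.64 at R15890 without Zscan4- replicate 1. For other settings the cause was not tested. Over the alternatives run for them, the windows' log2 ratios ran from -0.1 to 0.61 for Stat3 and from -1.16 to -0.27 for Socs3. They ran from -0.09 to 0.29 for Id1 and from 0.12 to 0.38 for Id3. The ratios of Stat3 and Id1 changed sign without Zscan4+ replicate 2, and that of Id1 also in the replicate 1 pair alone, at -0.03. Depth limits R15892 and R15893, with 17 and 12 pooled reads in Zscan4+ libraries.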

Other observations

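For the region of each window with the highest mean over the 4 libraries, the listed regions elsewhere with the most similar levels over the 4 libraries were found by Euclidean distance on log2(RPKM + 0.5). For R04036 in the Stat3 window this was R06963 on chromosome 14, from 59988698 to 59990536, at a distance of 0.07. For R04356 in the Socs3 window it was R21505 on chromosome 8, from 90498788 to 90499108, at 0.17, with 29.24 and 32.37 RPKM in Zscan4- and 13.33 and 19.63 RPKM in Zscan4+ replicates 1 and 2. For R13040 in the Id1 window it was R02008 on chromosome 10, from 69826638 to 69828530, at 0.03. For R15891 in the Id3 window it was R14333 on chromosome 3, from 103643188 to 103644960, at 0.08. How often other regions match as closely was not counted, and the matches are given as positions only.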
